A study of Mus musculus with 6 samples.

Results

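The genes described here are the 10 mouse genes P4ha1, P4ha2, P4ha3, Plod1, Plod2, Plod3, Serpinh1, Lox, Loxl1 and Loxl2, which encode enzymes and a chaperone of collagen hydroxylation, folding and crosslinking. They were chosen by name from the 54532 genes of the deposited expression table, and all 10 were found in it once. RNA sequencing was performed on MC3T3-E1 cells, a mouse pre-osteoblast line. The control group was 3 samples in osteogenic medium alone, to which, per the study's methods, dexamethasone at 10 nM, β-glycerophosphate and ascorbic acid at 50 mg/L had been added. The metformin group was 3 samples in the same medium with metformin, the diabetes drug. The induction lasted 3 days and the dose was 0.2 mM, both taken from the study's report because the sample labels give neither.

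Collagen chains are modified in the endoplasmic reticulum before they are secreted. Prolyl 4-hydroxylase, a tetramer of 2 catalytic α subunits (P4ha1, P4ha2 or P4ha3) and 2 β subunits (P4hb), makes the hydroxyproline that stabilizes the triple helix, and the lysyl hydroxylases Plod1, Plod2 and Plod3 modify lysine. Both families use oxygen, iron and 2-oxoglutarate, with ascorbate keeping the iron reduced. Serpinh1, also called Hsp47, binds the folded triple helix as a collagen-specific chaperone. Outside the cell the copper enzymes Lox, Loxl1 and Loxl2 oxidize lysine and hydroxylysine so that fibres become crosslinked. In osteoblasts these steps prepare the type I collagen on which mineral is laid down.

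Levels are in FPKM (fragments scaled by gene length and library size), a per-length unit in which genes can be compared. Recovered reads were 18399861 to 22111790 per sample. The library sizes implied by the deposited values were 1.83e+07 to 2.18e+07 and differed from the recovered reads in every sample. How they were set is not given in the sources used here. Control replicate 1 stood apart, with Pearson correlations of log2 values across genes of 0.960 and 0.952 with the other controls, which had 0.988 with each other, and its deviation from them had a Spearman correlation of -0.67 with GC content across genes. The 3 metformin samples had correlations of 0.992 with each other. Log2 fold changes and planned shares of the 10 genes are therefore also given without control replicate 1. The osteoblast genes Runx2 (25.8 to 34.1 FPKM), Sp7 (36.8 to 54.0) and Col1a1 (927 to 2576) were present in all 6 samples, while Alpl (2.44 to 3.84) and Bglap (2.22 to 12.3) were low. The 8 osteoblast markers summed to 9122 to 10830 FPKM in the controls, mostly from Spp1. With metformin they summed to 5451 to 5698, mostly from Spp1 and Col1a1. Spp1 averaged 7703 FPKM in the controls and 2704 with metformin, Ibsp 814 and 265, and Dmp1 74.8 and 37.5. By limma-trend (adjusted p under 0.05) these 3 were lower with metformin, Col1a1 was higher and the other 4 were not called. Over all tested genes 9.28% were lower and 13.2% higher. Bglap had 2.22, 12.3 and 9.55 FPKM in the controls and 5.06, 6.31 and 4.73 with metformin. Without control replicate 1 it was called lower (log2 fold change -0.91, adjusted p = 0.0031, limma-trend) and Sp7 higher (0.27, adjusted p = 0.023, limma-trend). In that fit 2 of the 8 markers were higher and 4 lower, against 23.4% and 20.4% of all tested genes. Of 24 markers of adipocytes, chondrocytes, skeletal muscle, blood and endothelial cells, 18 were under 0.5 FPKM in every sample, among them Adipoq, Acan, Myod1, Ptprc and Pecam1. The chondrocyte markers summed to 26.6 to 39.9 FPKM in the controls and 28.7 to 30.6 with metformin, nearly all from Sox9 and Col2a1. Of the adipocyte markers, Cebpa averaged 7.99 FPKM in the controls and 7.07 with metformin, and Fabp4 2.21 and 2.06. The blood markers summed to 1.96 to 2.15 FPKM in the controls and 1.06 to 1.28 with metformin, nearly all from Cd68, and the muscle markers to 1.196 to 2.02 and 2.33 to 2.80, mostly from Des. In such bulk samples, fewer cells of a type and less RNA per cell cannot be told apart.

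Metformin samples had more transcript of the prolyl 4-hydroxylase α subunits, of Serpinh1 and of Plod1. With all 6 samples, 0 of the 9 tested genes were called lower by limma-trend, also at an unadjusted p under 0.05. With voom 0 were called lower, although Lox was called lower once values were corrected for GC content. Of the 9 genes above the limit of 0.5 mean FPKM, 5 were called higher at an adjusted p-value under 0.05 (limma-trend on log2(FPKM + 1), Benjamini-Hochberg over 12681 genes). Over all tested genes 13.2% were called higher and 9.28% lower. For 6 of the 9 the 3 metformin samples lay above all 3 controls, as they did for 23.6% of tested genes. The median log2 fold change of the 9 was 0.42, against 0.0053 for all tested genes. Without control replicate 1, 6 of the 9 were called higher, Plod3 being added, and 0 lower, against 23.4% and 20.4% of all tested genes. Their median was then 0.33. The calls of P4ha1 and P4ha2 held whichever of the 6 samples was omitted. However, the number of the 10 called higher fell to 2 when any metformin replicate was left out. The share over all tested genes in those fits is not given here, so whether calls fell for all genes cannot be told. Fold changes on this scale understate those of low genes.

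**Figure D1:**
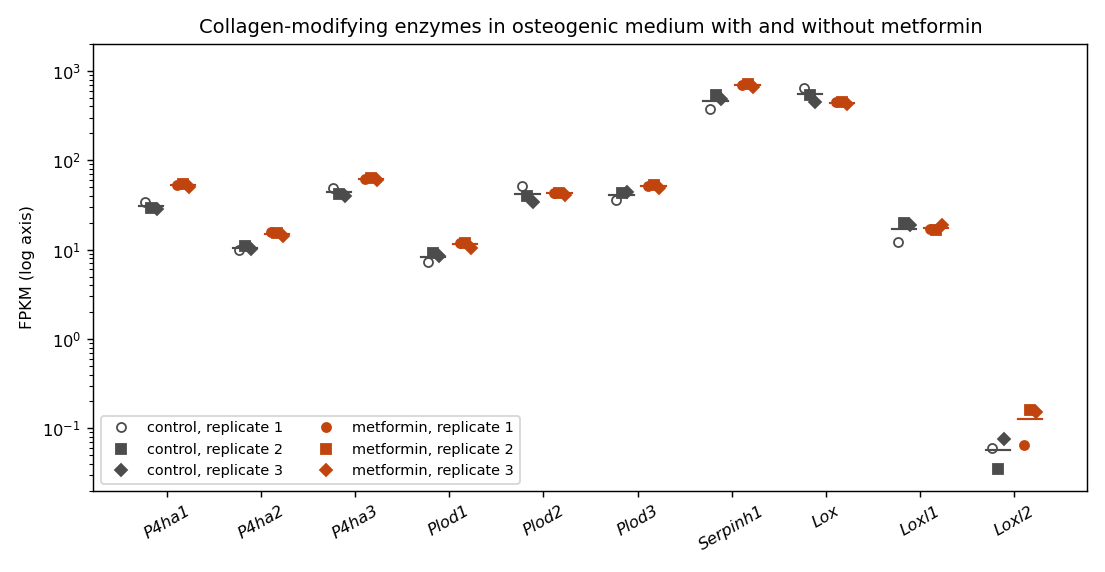
FPKM of each gene (log axis) in the 3 control samples (grey, replicate 1 as an open circle) and the 3 metformin samples (orange), with a line at each group mean. Lox and Serpinh1 lie far above the others, Loxl2 stays at or below 0.161 FPKM, and the metformin points of P4ha1, P4ha2, P4ha3, Plod1, Plod3 and Serpinh1 lie above all of their controls.

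Levels ran over several orders of magnitude. In the controls Lox (545 ± 98.6 FPKM, SD, n = 3) and Serpinh1 (461 ± 82.8) were the most abundant, and they did not differ beyond their spread. P4ha3 (43.9 ± 5.06), Plod2 (41.6 ± 8.65) and Plod3 (41.2 ± 4.52) formed a middle group within each other's spread, followed by P4ha1 (30.6 ± 3.13) and Loxl1 (17.1 ± 4.22). P4ha2 (10.3 ± 0.518) and Plod1 (8.34 ± 0.946) were lower. With metformin Serpinh1 (692 ± 21.3) was above Lox (441 ± 12.2), with no overlap of their samples, and P4ha1 (52.3 ± 2.32) stood within the spread of Plod3 (51.3 ± 1.99).

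P4ha1, which encodes the α subunit of the most widely expressed form of prolyl 4-hydroxylase, lies on chromosome 10 (59323296 to 59373304, coordinates of the deposited table). It had 34.2, 29.6 and 28.2 FPKM in the controls and 53.3, 53.9 and 49.6 FPKM with metformin. The groups did not overlap, and the mean was 1.71 times the control mean. The log2 fold change was 0.76 (standard error 0.10, adjusted p = 0.0028, limma-trend), the largest of the 9, and 0.83 without control replicate 1. P4ha2 encodes a second α subunit, on chromosome 11 (54100095 to 54131665). Its FPKM were 9.90, 10.9 and 10.2 in the controls and 15.7, 15.3 and 14.4 with metformin. All metformin samples were again above the controls, and the log2 fold change was 0.51 (standard error 0.08, adjusted p = 0.0056, limma-trend) and 0.49 without control replicate 1. P4ha3, the third α subunit and the most abundant of the family here, lies on chromosome 7 (100285520 to 100319699). It had 49.6, 42.4 and 39.8 FPKM in the controls and 61.5, 64.0 and 60.4 FPKM with metformin. Control replicate 1 was the highest control and still below every metformin sample. The log2 fold change was 0.49 (standard error 0.10, adjusted p = 0.017, limma-trend) and 0.58 without that replicate. Its call was lost without control replicate 2 and without any 1 metformin replicate, with adjusted p-values of up to 0.088 by limma-trend, and with a correction for GC content (adjusted p = 0.055).

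Within the family P4ha1 took a larger share with metformin. It made up 36.5%, 35.7% and 36.1% of the summed FPKM of P4ha1 to P4ha3 in the controls and 40.9%, 40.4% and 39.9% with metformin. The difference of 4.30 percentage points had an exact two-sided permutation p of 0.1, the smallest that 3 against 3 samples allow, and an adjusted p of 0.133 over the 4 planned within-sample measures. It was 4.51 without control replicate 1. P4ha3 took 51.7% ± 1.10 (SD, n = 3) in the controls and 47.9% ± 0.744 with metformin. P4hb encodes the β subunit, the protein disulfide isomerase that many other proteins also use, and it had 295 ± 36.6 FPKM in the controls and 345 ± 5.18 with metformin (log2 fold change 0.23, adjusted p = 0.20, limma-trend). Without control replicate 1 the log2 fold change of P4hb was 0.32 (adjusted p = 0.019, limma-trend). The summed α subunits came to 28.3, 27.9 and 30.3 per 100 FPKM of P4hb in the controls and to 38.1, 38.0 and 36.5 with metformin, with no overlap. This ratio was chosen after the values were seen, as were all ratios below that say so, and they are given as descriptions.

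**Figure D2:**
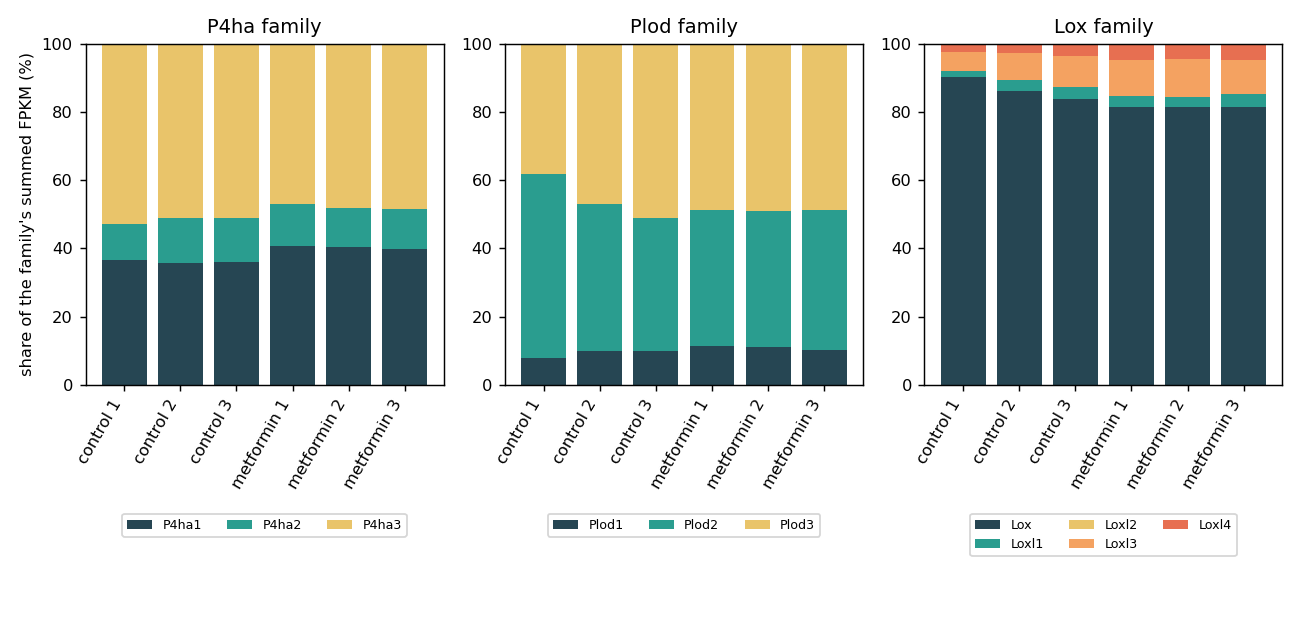
Share of each paralogue in the summed FPKM of its family (percent, stacked to 100) in each of the 6 samples. P4ha1 (dark, left panel) is near 36% in the controls and near 40% with metformin, Plod2 (middle panel) is highest in control replicate 1 at 54.1%, and Lox (dark, right panel) falls from 83.8% or more in the controls to 81.6% or less with metformin.

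The sequences upstream of the α subunit genes and of Serpinh1, which were called higher, are shown. Plod1 was also called higher, and for it only counts of matches are given. The windows are RefSeq promoters on GRCm38.p6, which covered 6 of the 10 genes, and each run below is the 250 bases before the annotated start. Capitals mark the core of the hypoxia response element, ACGTG or GCGTG on either strand, since prolyl and lysyl hydroxylase genes are known targets of hypoxia-inducible factors.
P4ha1 (chr10:59323046-59323295, + strand): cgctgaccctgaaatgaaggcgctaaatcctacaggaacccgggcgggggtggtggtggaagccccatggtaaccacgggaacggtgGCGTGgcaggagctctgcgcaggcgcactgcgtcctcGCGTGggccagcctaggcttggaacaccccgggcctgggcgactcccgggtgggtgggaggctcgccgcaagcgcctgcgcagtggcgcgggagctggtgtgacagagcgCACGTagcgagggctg
P4ha2 (chr11:54100674-54100923, + strand): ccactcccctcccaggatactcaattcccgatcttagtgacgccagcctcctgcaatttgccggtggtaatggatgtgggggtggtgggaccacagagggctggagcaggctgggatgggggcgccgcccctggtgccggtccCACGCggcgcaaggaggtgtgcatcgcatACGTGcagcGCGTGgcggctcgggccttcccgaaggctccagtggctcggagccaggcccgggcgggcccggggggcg
P4ha3 (chr7:100285270-100285519, + strand): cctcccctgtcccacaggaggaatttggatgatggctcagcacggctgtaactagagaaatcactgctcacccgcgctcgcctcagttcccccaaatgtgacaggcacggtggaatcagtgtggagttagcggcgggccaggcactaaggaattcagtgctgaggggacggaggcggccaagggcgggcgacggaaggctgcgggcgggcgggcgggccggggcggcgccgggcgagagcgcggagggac
Serpinh1 (chr7:99353240-99353489, - strand): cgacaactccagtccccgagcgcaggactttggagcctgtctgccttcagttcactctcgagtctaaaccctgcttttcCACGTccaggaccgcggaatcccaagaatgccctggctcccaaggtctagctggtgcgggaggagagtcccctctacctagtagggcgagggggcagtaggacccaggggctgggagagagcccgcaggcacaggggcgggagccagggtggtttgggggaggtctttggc
P4ha1 held 3 matches, which began at -163, -126 and -16 from the start. P4ha2 held 4 when the 50 bases after the start were included, 1 of them there, and its RefSeq start lies inside the gene of the deposited table. Serpinh1 held 1 match and P4ha3 held 0. Plod1 held 2 and Plod3 held 4. The core was found in 43.8% of all 32851 promoter windows, which run from 250 bases before to 50 after the start. Its presence in 5 of 6 is therefore a description of these letters only. The GC content of these 6 windows was 53.3% to 70.3%, against a median of 52.7% over all windows. Shares over all promoters were not matched for GC content. The GC box GGGCGG, which 35.7% of all promoters hold on either strand, was found 5 times in P4ha3, 4 in P4ha2, 3 in Plod1, 2 in P4ha1, 1 in Serpinh1 and 0 in Plod3. The heat shock element (GAANNTTC or TTCNNGAA, 15.1% of all promoters) had 1 match each in P4ha2 and Plod1 and 0 in Serpinh1. The TATA box (TATAAA, 13.6%) had 1 each in P4ha1 and Plod1, and the CCAAT box (37.4%) had 1 in Plod3. P4ha3 and Serpinh1 are separated by 932280 bases on chromosome 7, with 36 genes of the table between them.

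Serpinh1 (chromosome 7, 99345376 to 99353239) had 370, 532 and 483 FPKM in osteogenic medium alone and 699, 709 and 668 FPKM with metformin. The lowest metformin sample was above the highest control. The log2 fold change was 0.60 (standard error 0.15, adjusted p = 0.030, limma-trend), and it was 0.45 (adjusted p = 0.0050, limma-trend) without control replicate 1, the lowest control. The call was lost without any 1 metformin replicate, with adjusted p-values of up to 0.119 by limma-trend. The main clients of the chaperone rose as well: Col1a1 went from 1339 ± 359 to 2487 ± 108 FPKM (log2 fold change 0.93, adjusted p = 0.023, limma-trend) and Col1a2 from 970 ± 28.3 to 1444 ± 74.0 (0.57, adjusted p = 0.0072, limma-trend). The call of Col1a1 held in 3 and that of Col1a2 in 4 of the 6 fits without 1 sample, and both were lost with no filter on low values (adjusted p = 0.19 and 0.18, limma-trend). For Col1a1 the log2 fold change was 0.69 without control replicate 1. Relative to them Serpinh1 was lower with metformin. It had 19.7, 21.2 and 19.0 per 100 FPKM of Col1a1 plus Col1a2 in the controls and 17.7, 17.3 and 17.9 with metformin. On the log2 scale this ratio differed by -0.18, with no overlap between the groups. Its exact two-sided permutation p was 0.1, the smallest possible here, and 0.133 when adjusted over the 4 planned measures. The difference was -0.19 without control replicate 1 and -0.12 on reads not divided by gene length. The summed α subunits of prolyl 4-hydroxylase came to 4.99, 3.30 and 3.07 per 100 FPKM of the same chains in the controls and to 3.31, 3.25 and 3.32 with metformin. Control replicate 1 had the highest value of this ratio, chosen after the values were seen, and the lowest metformin sample lay between the other 2 controls.

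**Figure D3:**
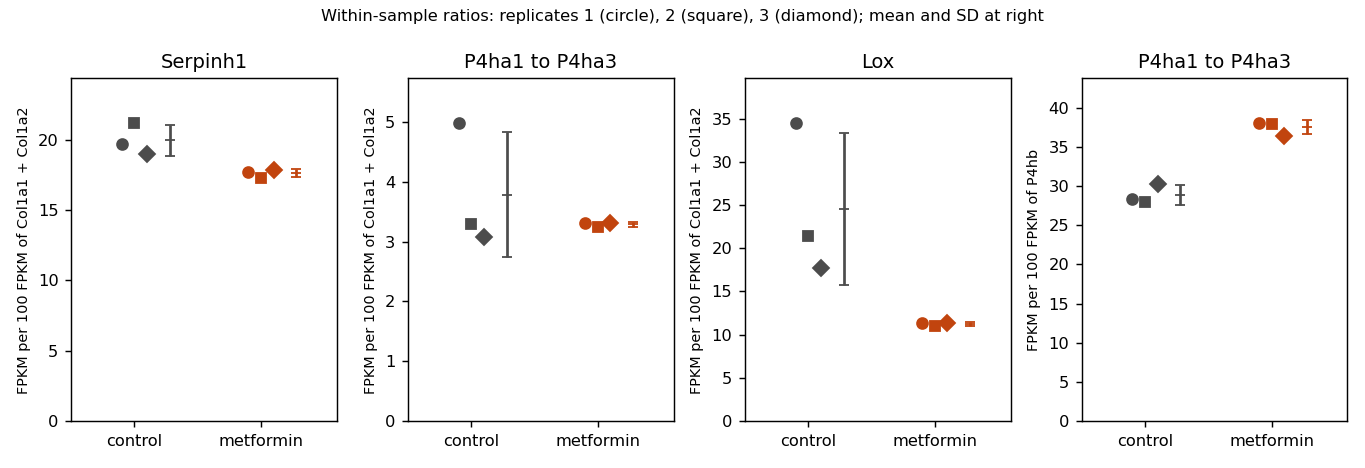
Within-sample ratios in control (grey) and metformin (orange) samples, with each replicate as a point and the mean and SD beside them; the first 3 panels are FPKM per 100 FPKM of Col1a1 plus Col1a2 and the last per 100 FPKM of P4hb. Serpinh1 and Lox are lower per type I collagen transcript with metformin, the α subunits overlap between the groups, and the α subunits per P4hb are higher with metformin.

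Of the lysyl hydroxylases only Plod1 was called with all samples, and a difference between the 3 genes was not tested. Plod1 (chromosome 4, 147909753 to 147936767), the enzyme of helical lysines, had 7.30, 9.15 and 8.56 FPKM in the controls and 11.96, 11.9 and 10.4 with metformin. No metformin sample reached down to a control, and the log2 fold change was 0.42 (standard error 0.11, adjusted p = 0.034, limma-trend) and 0.33 without control replicate 1. Its call was lost without control replicate 3 and without any 1 metformin replicate, with adjusted p-values of up to 0.140 by limma-trend. Plod3 (chromosome 5, 136987019 to 136996648), which also adds sugars to hydroxylysine, had 36.005, 43.3 and 44.2 FPKM in the controls and 51.7, 53.1 and 49.2 with metformin. The groups did not overlap, but the log2 fold change of 0.32 was not called with all samples (standard error 0.11, adjusted p = 0.077, limma-trend). It was called without control replicate 1, at 0.22 (adjusted p = 0.020, limma-trend), and with the GC correction (adjusted p = 0.039). Plod3 overlaps Znhit1 on the opposite strand and shares 315 bases of transcript with it, and Znhit1 had 513 to 1097 reads in the controls and 719 to 915 with metformin. Whether counting used strand is not given in the sources used here. Plod2 (chromosome 9, 92542223 to 92608428) encodes the hydroxylase of the telopeptide lysines, which decides the type of crosslink. Its FPKM were 50.9, 39.8 and 33.9 in the controls and 42.5, 43.5 and 41.4 with metformin. The controls spread to both sides of the metformin samples, and the log2 fold change was 0.05 with a 95% interval from -0.31 to 0.41 (adjusted p = 0.84, limma-trend). Without control replicate 1 it was 0.20, with an interval from 0.017 to 0.39 (adjusted p = 0.075, limma-trend). Plod2 made up 54.1%, 43.1% and 39.1% of the lysyl hydroxylase FPKM in the controls and 40.1%, 40.1% and 41.0% with metformin (exact permutation p = 0.4). The difference of -5.05 percentage points shrank to -0.74 without control replicate 1.

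**Figure D4:**
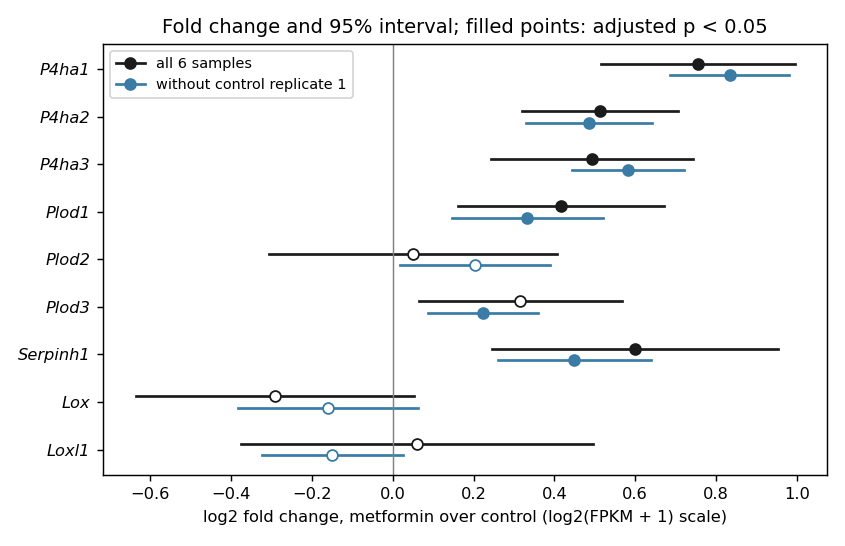
Log2 fold change of metformin over control on the log2(FPKM + 1) scale for the 9 tested genes, with 95% intervals, from all 6 samples (black) and without control replicate 1 (blue); filled points have an adjusted p-value under 0.05. P4ha1, P4ha2, P4ha3, Plod1 and Serpinh1 are filled in both fits, Plod3 in the second only, and the points of Loxl1 lie on opposite sides of 0.

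Among the crosslinking enzymes, no member was called. Lox (chromosome 18, 52516069 to 52529867), the main lysyl oxidase of fibrillar collagen and elastin, had 648, 537 and 451 FPKM in the controls and 446, 449 and 427 with metformin. Every metformin sample was below every control, although the gap to control replicate 3 was small. The log2 fold change was -0.29 (standard error 0.14, 95% interval from -0.64 to 0.053, adjusted p = 0.20, limma-trend), and it was -0.16 without control replicate 1. With the GC correction Lox was called lower (log2 fold change -0.34, adjusted p = 0.031, limma-trend). Set against type I collagen, Lox had 34.5, 21.4 and 17.8 FPKM per 100 FPKM of Col1a1 plus Col1a2 in the controls and 11.3, 11.0 and 11.4 with metformin, a ratio chosen after the values were seen. The difference in means was -13.3, and -8.37 without control replicate 1. Loxl1 (chromosome 9, 58287738 to 58313186), known for its part in elastic fibres, had 12.2, 20.03 and 18.9 FPKM in the controls and 17.2, 16.4 and 18.8 with metformin. The groups overlapped, with a log2 fold change of 0.06 (95% interval from -0.38 to 0.50, adjusted p = 0.85, limma-trend), and without control replicate 1 it was -0.15. Loxl2 (chromosome 14, 69609068 to 69695834), which acts on basement membrane collagen, was too low to be tested, with 6, 4 and 8 reads in the controls and 7, 19 and 16 reads with metformin. These are 0.035 to 0.075 and 0.065 to 0.161 FPKM. Its transcript shares 2348 bases with Gm21451, for which the table lists 0 reads in every sample.

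Loxl3 and Loxl4 were the other expressed genes of the family. Loxl4, a lysyl oxidase with scavenger receptor domains, rose from 17.2 ± 1.32 to 24.7 ± 0.716 FPKM (log2 fold change 0.50, adjusted p = 0.0081, limma-trend). The related Loxl3 had 46.7 ± 5.54 and 57.1 ± 3.54 FPKM (log2 fold change 0.29, adjusted p = 0.12, limma-trend). Lox made up 90.3%, 86.3% and 83.8% of the family's FPKM in the controls and 81.6%, 81.5% and 81.6% with metformin. The difference of -5.17 percentage points had an exact two-sided permutation p of 0.1, the smallest possible, and an adjusted p of 0.133 over the 4 planned measures. It was -3.42 without control replicate 1. The summed FPKM of P4ha1 to P4ha3 per 100 FPKM of Lox were 14.5, 15.4 and 17.3 in the controls and 29.3, 29.6 and 29.1 with metformin, a ratio chosen after the values were seen. The groups did not overlap, and the mean went from 15.7 ± 1.46 to 29.3 ± 0.264.

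Other genes of collagen maturation were mostly not called, as were 9834 of all 12681 tested genes. Of 33 such genes 27 were tested, 5 were called higher, 1 lower and 21 neither. Over all tested genes 13.2% were called higher and 9.28% lower. The median log2 fold change of the 27 was 0.20. Crtap, a scaffold of the prolyl 3-hydroxylation complex, rose from 93.0 ± 6.49 to 121 ± 6.72 FPKM (log2 fold change 0.37, adjusted p = 0.033, limma-trend). Its partners P3h1 (0.12, adjusted p = 0.42) and Ppib (0.07, adjusted p = 0.66) were not called by limma-trend, and a difference between the 3 genes was not tested. Crtap was not called with the GC correction (adjusted p = 0.087, limma-trend) or the replicate block (adjusted p = 0.098, limma-trend). Colgalt1, the galactosyltransferase of hydroxylysine, had a log2 fold change of 0.31 (adjusted p = 0.037, limma-trend), Sec24d, a coat protein of procollagen export, 0.35 (adjusted p = 0.027) and Adamts2, the procollagen N-propeptidase, 0.33 (adjusted p = 0.041). In the 6 fits that left out 1 sample, Crtap and Adamts2 were called in 2, and Colgalt1 and Sec24d in 1. Tmem38b, an endoplasmic reticulum cation channel whose loss impairs collagen modification, was the gene called lower, from 23.0 ± 3.11 to 11.2 ± 0.229 FPKM (log2 fold change -0.97, adjusted p = 0.0014, limma-trend), in all 6 fits that left out 1 sample. Pcolce2, a procollagen proteinase enhancer, was under the FPKM limit with 4, 4 and 2 reads in the controls and 59, 50 and 60 with metformin. Without control replicate 1, 13 of the 27 were called higher and 1 lower, at shares of 23.4% and 20.4% over all tested genes. The added genes were P4hb, P3h3, Fkbp10, Fkbp14, Mia3, Sec23a, Slc23a2 and Atp7a. Without a metformin replicate between 0 and 1 of the 27 was called higher, and the share over all tested genes in those fits is not given here.

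**Figure D5:**
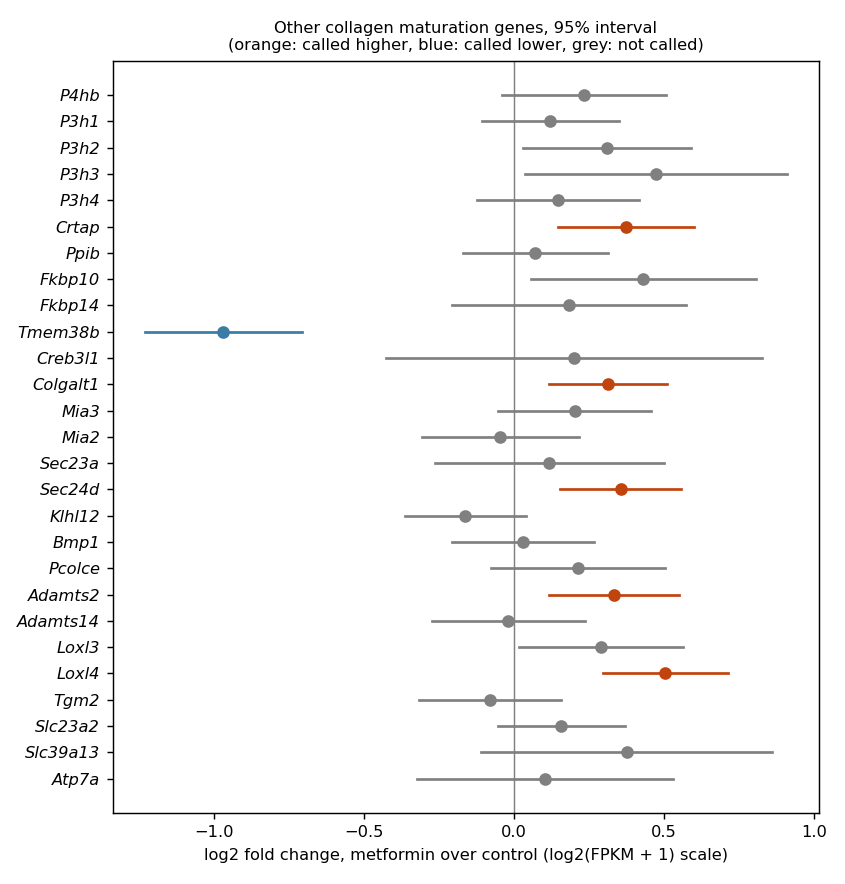
Log2 fold change (log2(FPKM + 1) scale, metformin over control) with 95% interval for the 27 tested genes among the 33 other collagen maturation genes. Crtap, Colgalt1, Sec24d, Adamts2 and Loxl4 (orange) are called higher, Tmem38b (blue) is called lower, and the other 21 are grey.

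The collagen chains themselves moved in both directions. Of 44 collagen genes 25 were tested, 10 were higher and 2 lower (13.2% and 9.28% over all tested genes), the latter Col3a1 (log2 fold change -0.33, adjusted p = 0.046, limma-trend) and Col10a1 (-1.91, adjusted p = 0.00021, limma-trend). Col10a1 averaged 3.79 FPKM in the controls and 0.264 with metformin (20, 12 and 18 reads), 0.0697 times the control mean. Its metformin mean was under the limit of 0.5, which it passed through the controls. The call of Col3a1 held in 1 of the 6 fits without 1 sample. Without control replicate 1 there were 13 higher and 7 lower chains (23.4% and 20.4% over all tested genes). Of 18 genes of hypoxia and oxygen sensing, 15 were tested, 5 were higher and 3 lower, against the same 13.2% and 9.28%. The largest changes were those of Pgk1 (log2 fold change 1.11, adjusted p = 0.00034) and Ldha (0.95, adjusted p = 0.00068), enzymes of glycolysis, of Pdk1 (1.03, adjusted p = 0.0015), which restrains pyruvate oxidation, and of the carbonic anhydrase gene Car9 (0.88, adjusted p = 0.0065), all by limma-trend. Car9 averaged 0.43 FPKM in the controls (11, 16 and 32 reads) and 1.62 with metformin. Its control mean was under the limit of 0.5, which it passed through the metformin samples. The log2 fold change of Car9 was 1.77 with a pseudocount of 0.1 and 1.99 with voom. Egln1, an oxygen-sensing prolyl hydroxylase, was also higher, and Hif1an, Ndrg1 and Kdm3a were lower. The call of Egln1 held in 1 of the 6 fits without 1 sample, those of Hif1an and Kdm3a in 2 and that of Ndrg1 in 4. With the replicate number as a block Egln1, Hif1an and Kdm3a were not called (adjusted p = 0.10, 0.079 and 0.087, limma-trend). Hif1a itself was not called with all samples (log2 fold change 0.18, adjusted p = 0.59, limma-trend), but it was called higher without control replicate 1 (0.42, adjusted p = 0.011, limma-trend). Without that replicate 9 hypoxia genes were higher and 4 lower, against 23.4% and 20.4%. Whether these genes and the hydroxylases share a regulator was not tested.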

How the data were processed

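RNA of MC3T3-E1 cells was sequenced in 3 control and 3 metformin samples, described in the study as biological replicates. The authors deposited FPKM per gene and sample, with no unit named; multiplied by the listed gene length, 100% of values above 0 were whole multiples of 1 step per sample (tolerance 0.01), which gave the recovered reads. At these depths 3 reads were 1.36e-05% to 1.63e-05% of a sample, for counting error only. The submitters' processing notes list Bowtie 0.12.2 and the builds mm8 and mm9, but 53585 of 54532 genes had the coordinates of GENCODE M21 (GRCm38). Counting tool and annotation are not given in the sources used here. The authors compared groups with DESeq2. There were 0 other per-sample columns.

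Log2(FPKM + 1) was tested with limma-trend (limma 3.58.1, R 4.3.3) over the 12681 genes whose FPKM averaged 0.5 or more. P-values were adjusted by Benjamini-Hochberg and called under 0.05. P-values measure the spread between these samples. The 4 planned shares and ratios within a sample were compared by exact permutation, and the unplanned ones are descriptions. The fit was tested on simulated data. Near-identical transcripts (95% identity over 200 bases) were found with BLAST+ 2.17.0, and figures were drawn with matplotlib 3.10.9. All 10 genes are named, other lists by counts and by the genes called, and for hypoxia genes the 4 largest changes. The genes and lists were chosen with earlier results of these data known. P4hb, P3h1, Ppib, Loxl3, Pcolce2, Col10a1, Hif1a, Egln1, Hif1an, Ndrg1 and Kdm3a were named after their values were seen. Alternatives were no filter, 10 reads or more in every sample, scaling by total reads, a pseudocount of 0.1, a replicate block, a GC correction (spline with 5 degrees of freedom), voom on the recovered reads and leaving out each replicate. No pair of samples was as alike as counting alone would give (median chi-square per gene at least 1.19, against 0.455).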

Additional observations from a re-analysis of the deposited data

How the results depend on the processing

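With 5 of the 10 genes called higher in all 6 samples, the number of calls was 5 with a pseudocount of 0.1, scaling by total reads, at least 10 reads in every sample, the GC correction and voom, and 3 with no filter on low values, where Plod1 and Serpinh1 lost theirs. Under the GC correction P4ha3 lost its call and Plod3 gained one. With the replicate block it was 2 (P4ha1 and P4ha2), and 4 with the block and the GC correction. It was 2 to 6 over the 6 fits that left out 1 replicate. Genes called lower were 0, and 1 (Lox) with the GC correction. Of the other collagen maturation genes, 5 were called higher, 8 with the GC correction, 1 with the replicate block, 3 with both, and 0 to 13 over the fits without 1 replicate. Crtap and Colgalt1 lost their calls under the GC correction. Shares over all tested genes are given only for the main fit and the fit without control replicate 1. Whether the other settings changed calls for all genes alike cannot be told from these counts. The cause was not tested. Loxl1 had a log2 fold change of 0.06 with all samples, -0.034 with the GC correction, alone or with the replicate block, and -0.15 to 0.18 over the fits without 1 replicate. That of Plod2 was 0.05, and -0.083 to 0.20 over those fits. The median shift in log2 fold change over the tested genes was -0.054 under the GC correction and -0.025 under total-read scaling. The largest absolute shifts of a gene were 0.84 and 0.031. Same-numbered samples did not deviate together (correlations of -0.053, 0.00027 and -0.055), and 0 of 3 controls correlated best with the metformin sample of its number. With 3 pairs, a sign-flip test of the within-sample ratios under the replicate block could not go below 0.25. The difference in the share of P4ha1 was 4.08 to 4.56 percentage points without 1 replicate, that of Lox -6.66 to -3.42 and that of Plod2 -8.21 to -0.74. At these depths Loxl2, with 4 to 19 reads, could not be compared with any precision.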
